A study of Mus musculus with 11 samples.

Results

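R-spondins are secreted proteins that strengthen WNT signaling at the cell surface. The genes described here are the R-spondins *Rspo1*, *Rspo2*, *Rspo3* and *Rspo4*, the LGR receptors *Lgr4*, *Lgr5* and *Lgr6*, and the membrane E3 ubiquitin ligases *Znrf3* and *Rnf43*. They were chosen by family and function and matched by symbol to the Ensembl identifiers of the count files, which gave 9 genes of 38561 counted. RNA was sequenced from facial processes of mouse embryos at embryonic day 10.5 (E10.5), explants that held the nasal processes with the maxillary and mandibular arches, and all embryos were of a strain labelled Mixed. The 11 libraries carry 4 genotype labels: wild type (wt, n = 2), an *Rspo2* mutant (Rspo2KO, n = 3), a *Wnt9b* mutant (Wnt9bKO, n = 3) and the *Rspo2*;*Wnt9b* double mutant (DKO, n = 3). The mutations are constitutive, no treatment is labelled, and the methods plan 3 samples per genotype for sequencing and a few embryos per genotype for most experiments. Neither they nor the labels say whether a sequenced sample was 1 embryo or a pool, or whether samples were littermates, so p-values measure the spread between these samples, which may be technical. By the methods the study held *Rspo2* null alleles with and without an inserted *LacZ* and neomycin-resistance cassette, and which of them the sequenced embryos carried is not given in the sources used here.

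ZNRF3 and RNF43 mark Frizzled and LRP5/6, the WNT receptors, for removal from the membrane. An R-spondin that binds a ligase, with an LGR receptor as partner or, for some R-spondins, with heparan sulfate proteoglycans, clears the ligase from the surface, so that more WNT receptor stays. *Znrf3*, *Rnf43* and *Lgr5* are themselves known targets of WNT/β-catenin signaling in many tissues, which makes the ligases a negative feedback loop. In the embryonic face, *Rspo2* is known from the mesenchyme of the mandibular arch and *Wnt9b* from the overlying ectoderm. The comparisons ask how loss of either gene or of both changes the transcripts of this receptor module.

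Library totals ranged from 11136166 to 18017344 counts, and levels are given in CPM, the count scaled to a common library size with TMM factors. The label check failed in part: *Rspo2* was low in the library labelled Wnt9bKO 2 and as high as in wt in the library labelled DKO 3. Results that rest on them are therefore also given without these 2 doubted libraries. *Wnt9b* levels could not check the *Wnt9b* label of any library. They were at 16.2 to 23.3 CPM in Wnt9bKO and 18.2 to 20.2 CPM in DKO against 10.8 to 13.4 CPM in wt. All 10 surface epithelium markers and all 9 facial mesenchyme markers were detected in each genotype, with summed levels of 232 to 279.6 CPM and 784 to 1419 CPM. Other features of the libraries moved with the labels. *Xist*, expressed from the inactive X chromosome, was at 679 to 1468 CPM in wt and DKO and at most 1.94 CPM in Rspo2KO and Wnt9bKO libraries, so sex and genotype cannot be told apart in comparisons across these pairs. Small nuclear RNAs summed to 352 to 419 CPM in wt and Rspo2KO libraries but to 70.1 to 82.7 CPM in Wnt9bKO and DKO libraries, and erythroid markers to 3963 to 5794 against 1741 to 2846 CPM, so that neither difference can be told apart from loss of *Wnt9b*. *Xist* was at most 1.85 CPM in every Wnt9bKO and at least 1039 CPM in every DKO library, the doubted libraries included. Summed neuron markers were at 319 to 464 against 567 to 607 CPM in the same groups. The sums of all other cell type lists (epithelium, mesenchyme, forebrain and eye, erythroid, endothelium, muscle and heart) overlapped between Wnt9bKO and DKO. The small nuclear RNA sums placed both doubted libraries with the *Wnt9b* mutants but overlapped between Wnt9bKO and DKO. Whether samples were exchanged was not tested. In bulk tissue, fewer cells of a type and less RNA per cell cannot be told apart either.

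Levels of different genes can be compared only per length, in CPM per kb of annotated exon. In wt, *Lgr4* was the most abundant gene of the module at 16.7 CPM per kb, followed by *Rspo1* at 6.43, *Znrf3* at 5.57, *Rspo2* at 3.01 and *Rspo3* at 2.03 CPM per kb, and no library values of neighbours in this order overlapped. *Lgr5* and *Rnf43* followed at 0.644 and 0.633 CPM per kb and *Lgr6* and *Rspo4* came last at 0.116 and 0.0753 CPM per kb, with overlapping library values within each of these pairs. The face at E10.5 thus held transcripts of each family, and in each family a single gene led. *Lgr4* made up 92.1% to 96.9% of LGR transcripts per length over the 11 libraries, *Znrf3* 78.7% to 91.8% of ligase transcripts and *Rspo1* 44.3% to 70.6% of R-spondin transcripts.

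**Figure D1:**
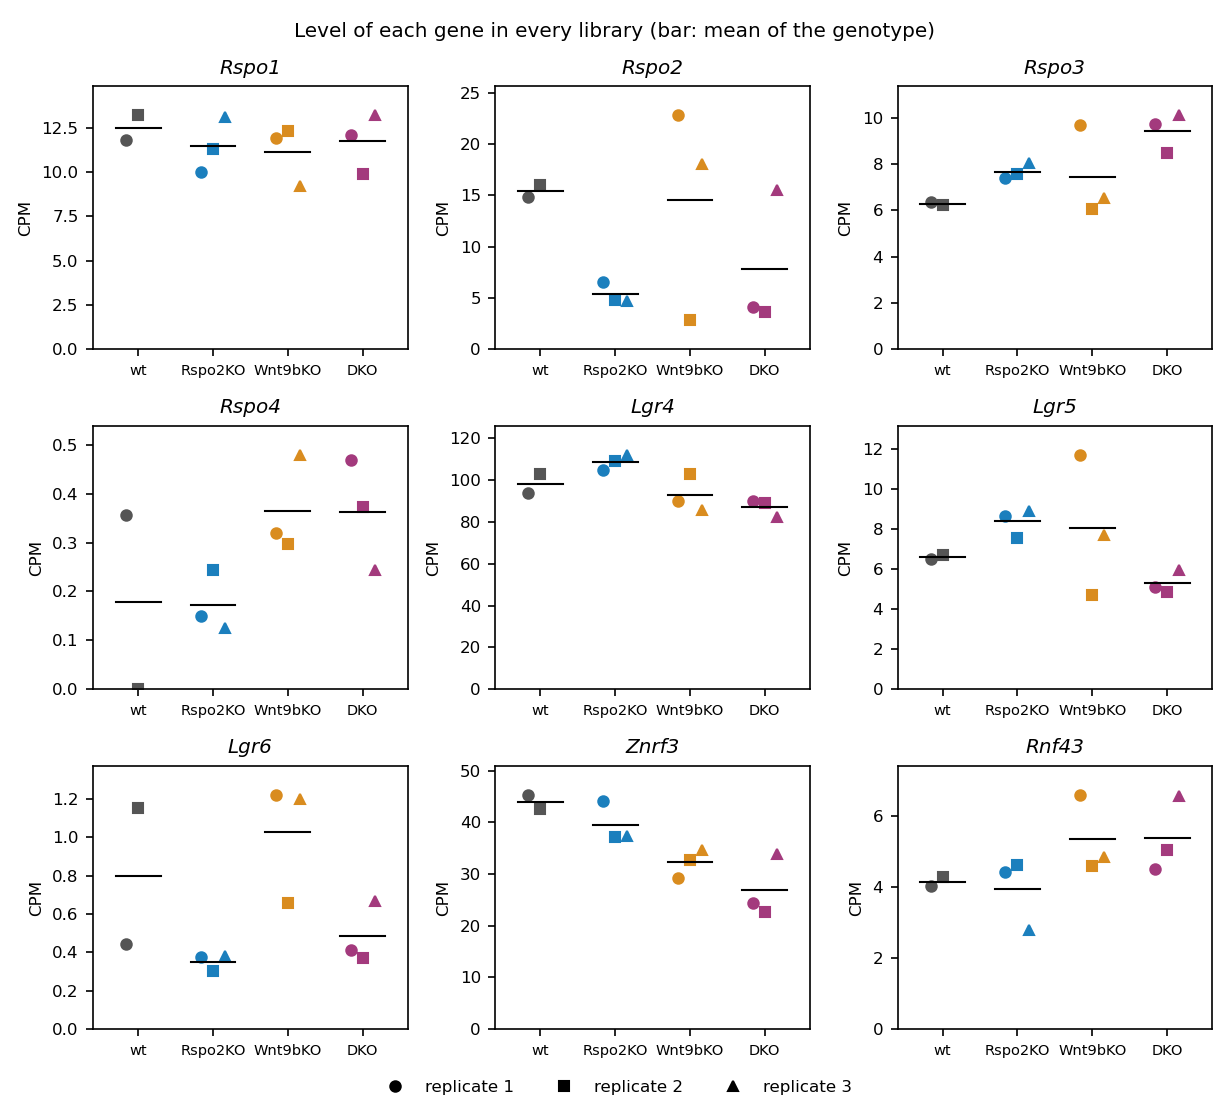
Level in CPM (linear vertical axes from 0, a different range for each gene) of the 9 genes in each of the 11 libraries, by genotype label; symbols give the replicate number and horizontal bars the mean of a genotype. *Rspo2* of the library labelled Wnt9bKO 2 (2.86 CPM) lies below every Rspo2KO library and that of DKO 3 (15.5 CPM) between the wt libraries, while *Znrf3* in all Wnt9bKO and DKO libraries lies below both wt libraries.

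*Rspo2*, the ligand gene that was targeted, lies on the reverse strand at chr15:43020794-43170826 of GRCm38. It was counted 166 and 265 times in the wt libraries, 88, 79 and 75 times in Rspo2KO, 429, 48 and 302 times in Wnt9bKO and 71, 59 and 256 times in DKO libraries. In CPM these were 14.8 and 16.0 in wt, 6.58, 4.79 and 4.73 in Rspo2KO, 22.8, 2.86 and 18.1 in Wnt9bKO and 4.17, 3.67 and 15.5 in DKO. The Rspo2KO libraries therefore kept 0.347 of the wt level in the fit, and the gene-level counts do not show which exons the remaining reads came from. Over the 11 libraries the coefficient of variation was 68.8% for *Rspo2* against 11.9% for *Rspo1* and 19.2% for *Rspo3*. The fitted log2 fold change against wt was -1.53 in Rspo2KO (SE 0.64, 95% interval -2.90 to -0.16, adjusted p = 0.358), -0.08 in Wnt9bKO (SE 0.61, adjusted p = 0.939) and -0.99 in DKO (SE 0.62, adjusted p = 0.262). Without the libraries labelled Wnt9bKO 2 and DKO 3 these were -1.54, 0.41 and -1.98, so that the direction in Wnt9bKO turned. These libraries were left out for their *Rspo2* values, so the remaining spread of *Rspo2* is set by that choice, and the values are given as a description with no test. The SE of the main fit rests on all 11 libraries. With only wt and Rspo2KO libraries in the edgeR model, *Rspo2* changed by -1.52 (SE 0.18, adjusted p = 0.00752).

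*Rspo1*, at chr4:124986430-125009099 (forward strand), was the steadiest ligand. It was at 11.8 and 13.2 CPM in wt, 10, 11.3 and 13.1 CPM in Rspo2KO, 11.9, 12.3 and 9.23 CPM in Wnt9bKO and 12.1, 9.89 and 13.2 CPM in DKO. The genotypes overlapped throughout. The 95% intervals of the log2 fold change against wt were -0.50 to 0.26 in Rspo2KO, -0.54 to 0.22 in Wnt9bKO and -0.47 to 0.29 in DKO.

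*Rspo3*, at chr10:29452416-29535867 (reverse strand), is the R-spondin known from vascular and placental development. It was at 6.34 and 6.22 CPM in wt, 7.41, 7.58 and 8.02 CPM in Rspo2KO, 9.68, 6.07 and 6.53 CPM in Wnt9bKO and 9.74, 8.46 and 10.1 CPM in DKO. All Rspo2KO and DKO libraries lay above both wt libraries, whereas the Wnt9bKO libraries spanned them. *Rspo3* rose in DKO by a log2 fold change of 0.59 (SE 0.20, 95% interval 0.16 to 1.02, adjusted p = 0.0413), a 1.51-fold higher level. The changes in Rspo2KO (0.29, SE 0.20, adjusted p = 0.6) and Wnt9bKO (0.25, SE 0.20, adjusted p = 0.371) did not pass. The call in DKO was lost without both doubted libraries (0.53, adjusted p = 0.0721), without either wt library, Rspo2KO 3, DKO 1 or DKO 3 (0.53 to 0.60, adjusted p up to 0.186) and with an offset for GC content and length (0.56, adjusted p = 0.0558). Summed endothelial markers lay between 170.1 and 185 CPM for wt and between 186 and 212 CPM for the mutants, and their part in the result was not tested. Of the 50-base windows of *Rspo3* exons, 11.6% also occur in an annotated antisense gene that is not in the count files, and the strand setting of the counting is not given in the sources used here.

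*Rspo4*, at chr2:151842927-151874668 (forward strand) and known for its role in nail formation, was close to the limit of detection. It had 4 and 0 counts in wt, 2, 4 and 2 in Rspo2KO, 6, 5 and 8 in Wnt9bKO and 8, 6 and 4 in DKO, and a count of 0 in the second wt library allows a level of up to 0.181 CPM (3 counts, counting error only). It did not pass the filter on low counts and was not tested, which leaves 8 genes of the module with a test.

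As a share of R-spondin transcripts per length, *Rspo2* stood at 25.9% and 26.2% in wt, 8.95% to 14.4% in Rspo2KO, 32.2%, 6.21% and 33.3% in Wnt9bKO and 7.83%, 8.24% and 22.9% in DKO. *Rspo3* made up 16.9% and 18.3% in wt, 25.1% to 26.9% in Rspo2KO, 19.9% to 22.6% in Wnt9bKO and 24.8% to 31.4% in DKO. These shares are tied to each other, so a lower share of *Rspo2* by itself raises those of the others. The summed level of the 4 ligands was 11.6 ± 0.495 CPM per kb (SD, n = 2) in wt, 9.52 ± 0.706 (SD, n = 3) in Rspo2KO, 11.2 ± 2.49 (SD, n = 3) in Wnt9bKO and 10.8 ± 2.26 (SD, n = 3) in DKO. All 3 Rspo2KO libraries lay below the wt libraries in this sum, and the other mutants spanned them.

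**Figure D2:**
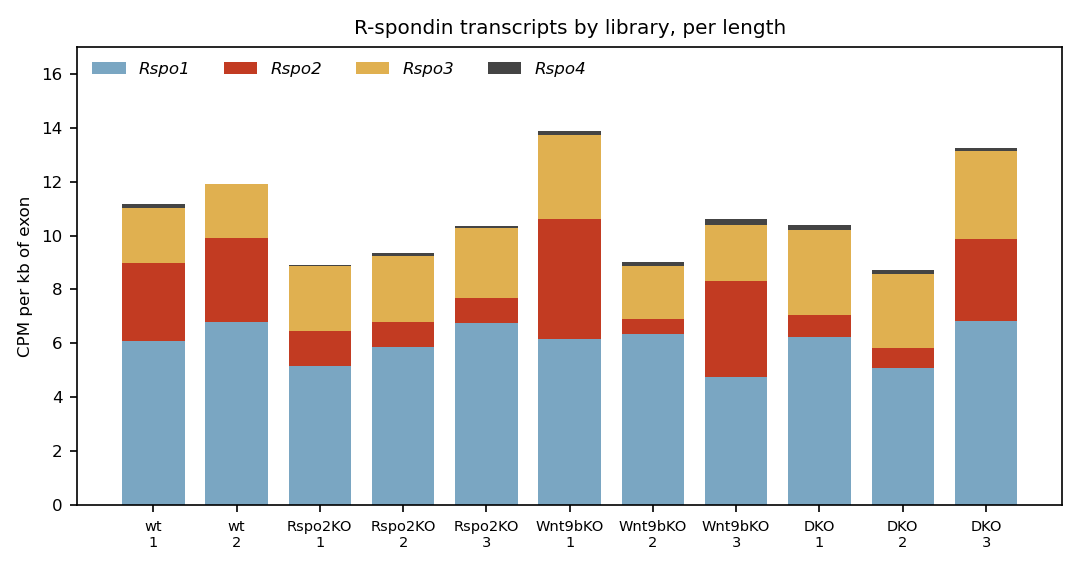
Stacked bars of the R-spondin transcripts in CPM per kb of exon (linear axis from 0) in each of the 11 libraries, named by genotype label and replicate number, with 1 colour per ligand. *Rspo1* is the largest part of every bar, and the *Rspo2* part is thin in the 3 Rspo2KO libraries, Wnt9bKO 2, DKO 1 and DKO 2.

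*Lgr4*, at chr2:109917647-110014257 (forward strand), encodes the broadly expressed LGR receptor. It was at 93.7 and 103 CPM in wt, 105, 109 and 112 CPM in Rspo2KO, 89.9, 103 and 85.7 CPM in Wnt9bKO and 90.1, 89.1 and 82.4 CPM in DKO. The Rspo2KO libraries were the highest 3 and all DKO libraries lay below wt. No difference from wt passed, with log2 fold changes of 0.14 (95% interval -0.09 to 0.36) in Rspo2KO, -0.09 (-0.31 to 0.13) in Wnt9bKO and -0.18 (-0.40 to 0.05, adjusted p = 0.225) in DKO. The latter passed with an offset for GC content and length (-0.31, adjusted p = 0.0277). Between DKO and Rspo2KO, *Lgr4* was lower by a log2 fold change of -0.31 (SE 0.09, 95% interval -0.51 to -0.11, adjusted p = 0.0304), that is at 0.804 of the Rspo2KO level, and the libraries did not overlap. That call was lost without both doubted libraries (-0.27, adjusted p = 0.0799), without Rspo2KO 2, Rspo2KO 3 or any single DKO library (adjusted p up to 0.109) and with all low-count genes kept in the test (adjusted p = 0.0604).

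*Lgr5*, at chr10:115450311-115587780 (reverse strand) and best known as a marker of WNT-dependent stem cells, was at 6.51 and 6.70 CPM in wt, 8.68, 7.58 and 8.90 CPM in Rspo2KO, 11.7, 4.70 and 7.73 CPM in Wnt9bKO and 5.10, 4.85 and 5.94 CPM in DKO. All Rspo2KO libraries lay above and all DKO libraries below wt. The log2 fold changes against wt of 0.34 in Rspo2KO (95% interval -0.25 to 0.94), 0.29 in Wnt9bKO (-0.30 to 0.88) and -0.32 in DKO (-0.92 to 0.29) did not pass. DKO and Rspo2KO libraries differed by -0.66 (SE 0.25, 95% interval -1.19 to -0.13, adjusted p = 0.0804), which passed in 7 of 22 alternatives, among them the fit without both doubted libraries (-0.74, adjusted p = 0.0215). DKO 3, left out there, was the highest DKO library of *Lgr5*, so that fit gives no separate support. The interaction, which asks whether the change in DKO differs from the sum of the changes in the single mutants on the log2 scale, was -0.95 (SE 0.37, unadjusted p = 0.0228, adjusted p = 0.457). It sets wt and DKO against both single mutants, the same split as *Xist*, so for every gene it cannot be told apart from sex.

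*Lgr6*, at chr1:134983301-135105276 (reverse strand), the LGR gene known from hair follicle and other epithelial stem cells, was sparse. Its counts were 5 and 19 in wt, 5, 5 and 6 in Rspo2KO, 23, 11 and 20 in Wnt9bKO and 7, 6 and 11 in DKO libraries. In CPM these were 0.446 and 1.15 in wt, 0.374, 0.303 and 0.379 in Rspo2KO, 1.22, 0.655 and 1.20 in Wnt9bKO and 0.411, 0.373 and 0.667 in DKO. Every Wnt9bKO library was above every Rspo2KO library, and the wt libraries lay far apart from each other. *Lgr6* was 2.89-fold higher in Wnt9bKO than in Rspo2KO (log2 1.53, SE 0.43, 95% interval 0.61 to 2.46, adjusted p = 0.0183). The call was lost without Rspo2KO 2, Rspo2KO 3, Wnt9bKO 1 or Wnt9bKO 3 (1.38 to 1.59, adjusted p up to 0.0745). The difference was 1.77 (adjusted p = 0.0104) without both doubted libraries. Wnt9bKO 2, left out there, was the lowest Wnt9bKO library of *Lgr6*, so that fit gives no separate support. Against wt, the log2 fold change of -1.24 in Rspo2KO (SE 0.51, unadjusted p = 0.0271, adjusted p = 0.344) did not pass.

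The 250 bases before the RefSeq start of *Lgr4* and *Lgr6* (GRCm38.p6) are shown because these receptors passed a test between mutants and have an entry, as 5 of the 9 genes do. *Lgr4* is read from chr2:109917397-109917646 on the forward strand and *Lgr6* from chr1:135105277-135105526 on the reverse strand, 5′ to 3′, with GC boxes in capitals.
Lgr4: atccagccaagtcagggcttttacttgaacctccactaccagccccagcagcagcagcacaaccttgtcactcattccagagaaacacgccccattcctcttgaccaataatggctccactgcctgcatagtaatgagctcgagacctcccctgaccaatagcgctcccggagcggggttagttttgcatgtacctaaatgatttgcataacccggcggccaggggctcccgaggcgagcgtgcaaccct
Lgr6: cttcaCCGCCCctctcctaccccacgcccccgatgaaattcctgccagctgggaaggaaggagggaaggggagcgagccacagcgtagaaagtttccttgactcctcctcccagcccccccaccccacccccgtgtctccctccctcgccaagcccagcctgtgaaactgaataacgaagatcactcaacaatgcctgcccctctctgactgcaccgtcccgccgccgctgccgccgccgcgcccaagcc
The letters CTTTGA or TCAAAG, the core of the site that TCF/LEF factors of the WNT pathway recognise, were searched on both strands and occur in neither window, nor in those of *Rspo1*, *Rspo4* and *Rnf43*, against 13.8% of 32851 promoter windows of this length. A GC box (GGGCGG or CCGCCC) occurs in the window of *Lgr6* and not in that of *Lgr4*, against 32.7% of all windows. The *Lgr6* window had a GC content of 65.2% and that of *Lgr4* 55.6%.

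*Znrf3*, at chr11:5276324-5444847 (reverse strand), the more abundant ligase gene, had the clearest change of the module. It was at 45.3 and 42.6 CPM in wt, 44.1, 37.1 and 37.4 CPM in Rspo2KO, 29.3, 32.8 and 34.7 CPM in Wnt9bKO and 24.4, 22.6 and 33.8 CPM in DKO. All Wnt9bKO and DKO libraries lay below all wt and Rspo2KO libraries, and within DKO the library labelled DKO 3 was the highest. *Znrf3* fell in DKO by 0.70 on the log2 scale (SE 0.15, 95% interval -1.03 to -0.37, adjusted p = 0.00432), to 0.614 of the wt level, and in Wnt9bKO by 0.44 (SE 0.15, 95% interval -0.77 to -0.11, adjusted p = 0.0392), to 0.735 of it. In Rspo2KO its log2 fold change was -0.15 (95% interval -0.48 to 0.18, adjusted p = 0.734). *Znrf3* was also lower in DKO than in Rspo2KO, with a log2 fold change of -0.55 (SE 0.14, adjusted p = 0.0142), and the difference between DKO and Wnt9bKO was -0.26 (95% interval -0.56 to 0.04, adjusted p = 0.925).

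Without both doubted libraries the log2 fold changes of *Znrf3* were -0.90 in DKO against wt (adjusted p = 0.000726), -0.46 in Wnt9bKO against wt (adjusted p = 0.0247) and -0.74 in DKO against Rspo2KO (adjusted p = 0.00206). DKO 3, left out here, was the highest DKO library of *Znrf3*, so the values for DKO give no separate support. The fall in DKO passed in 21 of 22 alternatives and missed only without wt 1 (adjusted p = 0.0514). The fall in Wnt9bKO was lost when either wt library, Rspo2KO 2 or any single Wnt9bKO library was left out (-0.38 to -0.49, adjusted p up to 0.2), and the difference between DKO and Rspo2KO without DKO 1 or DKO 2 (-0.48 and -0.44, adjusted p = 0.0712 and 0.076). The interaction for *Znrf3*, which cannot be told apart from sex, was -0.11 (95% interval -0.55 to 0.34, adjusted p = 0.901). Small nuclear RNAs and erythroid markers moved with the same split of the libraries as *Znrf3*, and their part in the result was not tested.

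*Rnf43*, at chr11:87662722-87735539 (forward strand), the other ligase gene, was at 4.02 and 4.29 CPM in wt, 4.41, 4.61 and 2.78 CPM in Rspo2KO, 6.59, 4.59 and 4.85 CPM in Wnt9bKO and 4.52, 5.04 and 6.55 CPM in DKO. The Wnt9bKO and DKO libraries lay above both wt libraries, the side opposite to *Znrf3*. Its log2 fold changes of 0.36 in Wnt9bKO (SE 0.26, 95% interval -0.18 to 0.91, adjusted p = 0.293) and 0.37 in DKO (SE 0.26, 95% interval -0.18 to 0.91, adjusted p = 0.313) did not pass. Per length, the share of *Rnf43* among ligase transcripts was 9.63% and 10.8% in wt, 8.2% to 13.0% in Rspo2KO, 14.4% to 21.3% in Wnt9bKO and 18.2% to 21.1% in DKO. The summed ligase level was 6.20 ± 0.226 CPM per kb (SD, n = 2) in wt, 5.61 ± 0.577 (SD, n = 3) in Rspo2KO, 4.91 ± 0.214 (SD, n = 3) in Wnt9bKO and 4.24 ± 0.915 (SD, n = 3) in DKO. The highest *Rnf43* levels, in Wnt9bKO 1 and DKO 3, stood beside epithelial marker sums of 269.8 and 279.6 CPM and the lowest, in Rspo2KO 3, beside 232 CPM, while Wnt9bKO 2 had a sum of 269 CPM at an *Rnf43* level of 4.59 CPM, and the part of epithelium in these levels was not tested.

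**Figure D3:**
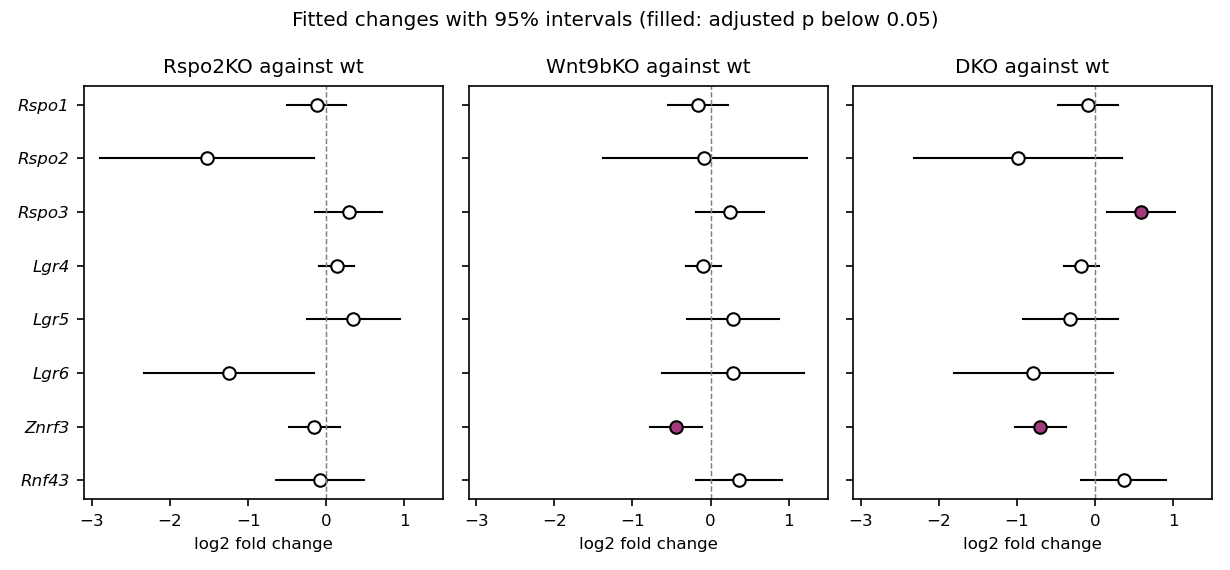
Fitted log2 fold change against wt (horizontal axes) with its 95% interval for the 8 tested genes in Rspo2KO, Wnt9bKO and DKO libraries; filled circles mark an adjusted p below 0.05. Filled circles stand at *Znrf3* in Wnt9bKO (-0.44) and at *Rspo3* (0.59) and *Znrf3* (-0.70) in DKO, and the intervals of *Rspo2* and *Lgr6* are the widest.

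Counted together, none of the 8 tested genes passed in Rspo2KO against wt, where 0.0346% of all 17317 genes tested passed. That share was 6 genes, of which 5 were the sex-linked *Xist*, *Ddx3y*, *Uty*, *Kdm5d* and *Eif2s3y*. With only autosomal protein-coding genes in the fit, 0 genes passed in Rspo2KO against wt. In that comparison edgeR gave 2 of the 8, *Rspo2* and *Lgr6*, an unadjusted p below 0.05, against 11.9% of all genes. The study used more than 1.5-fold with a p below 0.05 and does not say whether that p was adjusted, and with the unadjusted p this threshold passed the same 2 against 4.68% of all genes. Of these 2, *Rspo2* is the gene targeted in Rspo2KO, so only *Lgr6* counts beyond the targeted gene. DESeq2 called none of the 7 for which it gave an adjusted p there, and gave none for *Lgr6*. In Wnt9bKO against wt, 1 of 8 passed, *Znrf3*, which was lower, against 32.8% of all genes in either direction (16.8% higher and 16.0% lower). By the study's threshold none of the 8 passed against 24.8% of all genes. In DKO against wt, 2 of 8 passed, *Rspo3* higher and *Znrf3* lower, against 27.5% of all genes (14.3% higher and 13.1% lower), and by the study's threshold again 2 against 20.4%. By the adjusted p the module's share of calls was no larger than that of all genes in either comparison of *Wnt9b* mutants with wt. With 8 genes tested, its 2 in DKO by the study's threshold lay near the 20.4% of all genes. The median log2 fold change over the 8 genes was -0.10 in Rspo2KO, 0.09 in Wnt9bKO and -0.25 in DKO, beside 0.00, 0.01 and 0.01 over all genes.

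Between mutants, *Lgr4* and *Znrf3* were the 2 of 8 that passed in DKO against Rspo2KO, both lower, where 18.2% of all genes passed. In Wnt9bKO against Rspo2KO 1 of 8 passed, *Lgr6*, against 26.0% of all genes. In DKO against Wnt9bKO no gene of the module passed by edgeR or DESeq2, against 0.121% of all genes, and edgeR gave an unadjusted p below 0.05 to 2 of them, *Lgr5* (log2 fold change -0.61) and *Lgr6* (-1.08), against 5.63% of all genes. In the interaction none of the 8 passed by edgeR, against 0.0635% of all genes, and none of the 6 for which DESeq2 gave an adjusted p, which left out *Lgr6* and *Rnf43*. *Lgr5* was the 1 gene at an unadjusted p below 0.05 by edgeR, against 9.45% of all genes. Of the 11 genes called in the interaction, 5 were the same sex-linked genes, and 0 passed with only autosomal protein-coding genes in the fit. In DKO against Wnt9bKO the sex-linked genes were 5 of the 21 called. By the study's threshold 1 of 8 passed in DKO against Rspo2KO, 2 in DKO against Wnt9bKO, 2 in Wnt9bKO against Rspo2KO and 1 in the interaction, against 12.2%, 2.93%, 16.9% and 5.85% of all genes. The 2 in Wnt9bKO against Rspo2KO were *Lgr6* and the targeted *Rspo2*. These comparisons share libraries and are not independent of each other. Without both doubted libraries *Rspo2* differed between DKO and Wnt9bKO by -2.38 and between Wnt9bKO and Rspo2KO by 1.94 on the log2 scale, again a description, since its own values chose the libraries left out.

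Over the 11 libraries the 5 genes whose log2 levels were most like that of *Rspo2*, among 14850 genes of at least 1 CPM, included *Smoc2* (Pearson r = 0.967), *Msx2* (0.922), *Tbx3* (0.911) and *Msx1* (0.900). *Msx1* and *Msx2* encode homeobox factors of facial mesenchyme, *Tbx3* a T-box factor and *Smoc2* a secreted matrix protein. *Smoc2* was at 12.0 and 15.0 CPM in wt, 7.56, 6.49 and 6.63 CPM in Rspo2KO, 16.5, 3.63 and 11.4 CPM in Wnt9bKO and 6.57, 5.60 and 12.2 CPM in DKO. *Msx1* was at 137 and 125 CPM in wt, 67.6 to 72.0 CPM in Rspo2KO, 136, 35.1 and 90.5 CPM in Wnt9bKO and 52.0, 63.3 and 95.3 CPM in DKO. In each of them the library labelled Wnt9bKO 2 was the lowest of its label and DKO 3 the highest of its label, as for *Rspo2*. These libraries fall into a low and a high set by *Rspo2*, the genes were picked as the highest of many, and the values are a description. The facial mesenchyme markers, which include *Msx1*, summed to 1106 and 1176 CPM in wt, 836 to 914 CPM in Rspo2KO, 1419, 784 and 1091 CPM in Wnt9bKO and 1006, 938 and 1054 CPM in DKO, and forebrain and eye markers to 92.4 and 107 CPM in wt, 109 to 122 CPM in Rspo2KO, 115, 236 and 159.6 CPM in Wnt9bKO and 137 to 159 CPM in DKO. Of the 8 forebrain and eye markers, 6 passed in Wnt9bKO against wt and 5 in DKO against wt, all higher (medians 1.12 and 0.87). Over all genes 16.8% and 14.3% passed as higher in these comparisons. The part of these cell types in the *Rspo2* levels was not tested.

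Among the module's own genes, *Lgr6* had the pattern closest to *Rspo2* (r = 0.73, 11 libraries), with DKO 3 the highest of its label and Wnt9bKO 2 the lowest of its label in both genes. *Lgr5* also had its lowest Wnt9bKO level in Wnt9bKO 2 (4.70 CPM) and its highest DKO level in DKO 3 (5.94 CPM). *Rspo3* and *Znrf3* were at r = -0.60 and *Lgr4* and *Rnf43* at r = -0.71. All these values share the library totals and the scaling, and no test was made of them.

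**Figure D4:**
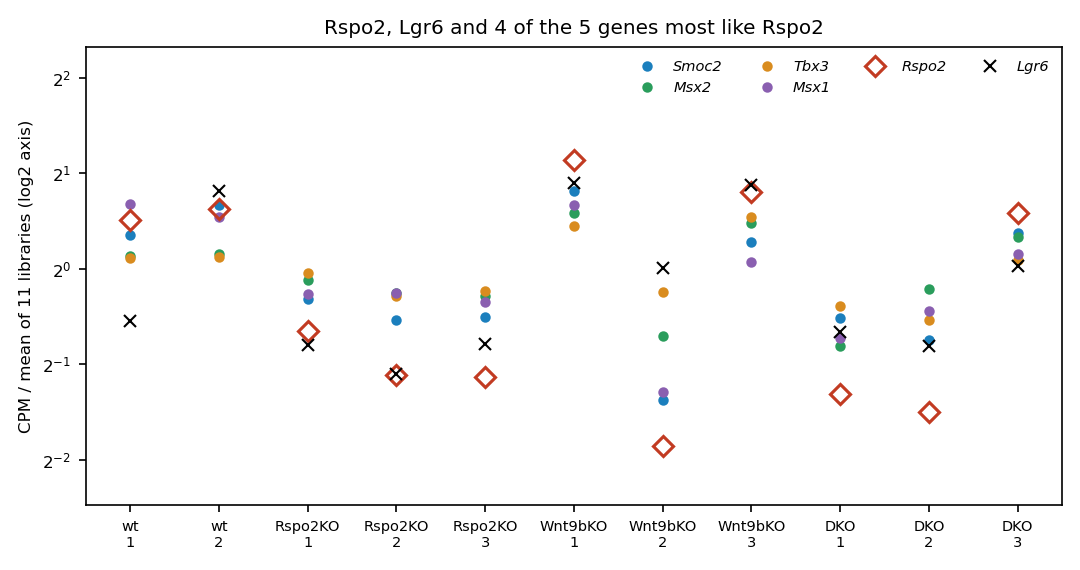
Level of *Rspo2* (open diamonds), *Lgr6* (crosses) and 4 of the 5 genes most like *Rspo2* (filled circles: *Smoc2*, *Msx2*, *Tbx3* and *Msx1*) in each of the 11 libraries, each divided by its mean over the 11 libraries, on a log2 axis. All 6 genes are lower in Wnt9bKO 2 than in the other Wnt9bKO libraries and higher in DKO 3 than in the other DKO libraries, while *Lgr6* of the first wt library (0.446 CPM) stands apart from the rest.

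The partners of the module were described from 4 gene lists. Of 16 R-spondin and ligase partners (proteoglycans, the deubiquitinase gene *Usp42*, Dishevelled genes and others), none passed by edgeR in Rspo2KO against wt, where 7 had an unadjusted p below 0.05, 8 passed in Wnt9bKO (4 higher and 4 lower) and 7 in DKO (4 higher and 3 lower). Over all genes these shares were 11.9% at an unadjusted p below 0.05 in Rspo2KO, and 32.8% and 27.5% called in Wnt9bKO and DKO. The median log2 fold changes of this list were -0.04, 0.05 and -0.05, close to the 0.00 to 0.01 of all genes. *Gpc4*, a glypican proteoglycan gene, rose from 13.8 CPM in wt to 30.5 CPM in Wnt9bKO (log2 1.14, SE 0.22, adjusted p = 0.00164) and 28.7 CPM in DKO (1.05, SE 0.22, adjusted p = 0.00351). *Usp42*, whose product removes ubiquitin from the ligases, rose from 31.0 CPM to 57.8 CPM in Wnt9bKO (0.90, SE 0.16, adjusted p = 0.000894) and 57.2 CPM in DKO (0.89, SE 0.16, adjusted p = 0.0013). The glypican gene *Gpc6* rose by 0.70 and 0.58 on the log2 scale in the 2 genotypes, and the syndecan gene *Sdc1* fell by 0.54 and 0.58.

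Among the 12 Frizzled and LRP genes, the receptors that the ligases remove, none passed by edgeR in Rspo2KO (4 at an unadjusted p below 0.05), 5 in Wnt9bKO (4 higher and 1 lower) and 2 in DKO (1 higher and 1 lower), with median log2 fold changes of -0.02, 0.09 and 0.06. Over all genes 32.8% were called in Wnt9bKO and 27.5% in DKO. In Rspo2KO 0.0346% were called and 11.9% had an unadjusted p below 0.05. With 12 genes, the 5 called in Wnt9bKO and the 2 in DKO were each near the share of all genes. *Lrp6* was at 140.0 CPM in wt, 193 CPM in Rspo2KO, 269 CPM in Wnt9bKO and 246 CPM in DKO, and it rose by 0.94 (SE 0.13, adjusted p = 0.000172) in Wnt9bKO and by 0.81 (SE 0.13, adjusted p = 0.000582) in DKO. *Fzd10* fell by 1.05 in Wnt9bKO (SE 0.21, adjusted p = 0.00188) and by 0.80 in DKO (SE 0.21, adjusted p = 0.0116) on the log2 scale. *Lrp5* and *Fzd5* rose in Wnt9bKO by 0.58 and 0.84, and their changes in DKO, 0.34 and 0.42, did not pass.

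Of 18 tested WNT ligand genes, none passed by edgeR in Rspo2KO (0 at an unadjusted p below 0.05), 3 in Wnt9bKO (1 higher and 2 lower) and 2 in DKO (both higher), with median log2 fold changes of -0.13, -0.10 and -0.01. The shares in Wnt9bKO and DKO lay below those of all genes (32.8% and 27.5%). In Rspo2KO 0.0346% of all genes passed and 11.9% had an unadjusted p below 0.05. *Wnt9b* transcripts rose by 0.61 (SE 0.18, adjusted p = 0.0187) in Wnt9bKO and by 0.68 (SE 0.18, adjusted p = 0.0138) in DKO, so that the gene-level counts do not show the *Wnt9b* deletion. *Wnt9a* and *Wnt3a* fell in Wnt9bKO by 1.04 and 1.59 on the log2 scale, *Wnt3a* to a low mean of 0.551 CPM. In DKO their changes, -0.56 (adjusted p = 0.159) and -0.04 (adjusted p = 0.953), did not pass. *Wnt8b* rose in DKO by 2.13, and its change of 1.87 in Wnt9bKO (adjusted p = 0.0582, libraries at 0.691 to 8.04 CPM) did not pass. Beside these stand the forebrain and eye markers, higher in both *Wnt9b* mutants, and neuron markers that summed to 515 and 559 CPM in wt, 612 to 686 CPM in Rspo2KO, 319 to 464 CPM in Wnt9bKO and 567 to 607 CPM in DKO. Of 8 neuron markers 1 passed in Wnt9bKO, lower, and 3 in DKO, higher, beside 32.8% and 27.5% of all genes in either direction. The part of these cells in the WNT ligand levels was not tested. Of 18 tested feedback and target genes, none passed by edgeR in Rspo2KO (4 at an unadjusted p below 0.05), 2 in Wnt9bKO and 2 in DKO, all lower, with medians of -0.20, 0.05 and -0.05. The shares in Wnt9bKO and DKO were again smaller than the 32.8% and 27.5% of all genes. The 4 in Rspo2KO stood beside 11.9% of all genes at an unadjusted p below 0.05. *Dkk1*, a secreted WNT inhibitor, was at 10.3 CPM in wt, 5.62 CPM in Rspo2KO, 5.62 CPM in Wnt9bKO and 4.0 CPM in DKO (-0.86, adjusted p = 0.0399 in Wnt9bKO and -1.36, adjusted p = 0.00513 in DKO). *Notum*, a secreted WNT deacylase, was at 3.49, 1.49, 1.24 and 1.31 CPM in the same order (-1.47, adjusted p = 0.0141 and -1.41, adjusted p = 0.0203). *Axin2*, the common readout of the pathway, was at 54.0 ± 1.40 CPM (SD, n = 2) in wt, 44.5 ± 8.03 (SD, n = 3) in Rspo2KO, 57.2 ± 16.4 (SD, n = 3) in Wnt9bKO and 55.3 ± 11.3 (SD, n = 3) in DKO, and its log2 fold change in DKO was 0.03 (95% interval -0.42 to 0.49).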

How the data were processed

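Total RNA of facial process explants was sequenced as single-end reads, and per the labels and the study's methods the authors used Cutadapt for trimming and STAR for alignment to GRCm38, and deposited whole-number counts per Ensembl gene from HTSeq, without normalization. Tool versions and the strand setting are not given in the sources used here. Genotype and replicate number came from the sample titles. The members and gene lists were chosen with earlier results of these data known.

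Counts were fitted with edgeR 4.0.16 in R 4.3.3 (quasi-likelihood test, two-sided, TMM factors, filterByExpr, genotype means, all 11 libraries), which left 17317 genes. A call is a Benjamini-Hochberg adjusted p below 0.05 over all of them, while the study's methods name DESeq2 and a threshold of 1.5-fold and p below 0.05, not said to be adjusted or not. DESeq2, and that threshold with edgeR's unadjusted p, were alternatives. The fit was tested on simulated data. CPM used TMM-scaled totals, and exon lengths came from the GRCm38 annotation. Likeness is Pearson's r of log2(CPM + 0.5). Named besides the members were up to 4 genes per list with the smallest p among those called against wt, *Wnt9b* and *Axin2*, and the 3 genes most like each member (5 for *Rspo2*, of which 1 is not reported here). Replicates of a genotype differed by more than sampling noise (chi-square per gene 5.07 to 33.3), and intervals of counts cover counting error only. Other normalizations, filters, sample sets, a GC content and length offset, a replicate block, DESeq2 1.42.0 and leaving out libraries were tried.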

Additional observations from a re-analysis of the deposited data

How the results depend on the processing

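The cause of the changes below was not tested. Without the libraries labelled Wnt9bKO 2 and DKO 3, 1 gene passed in Rspo2KO against wt (*Rspo2*), 1 in DKO against Wnt9bKO (*Rspo2*) and 3 in Wnt9bKO against Rspo2KO (*Rspo2*, *Lgr4* and *Lgr6*). These libraries were left out for their *Rspo2* values, so in this fit the calls of *Rspo2* follow from that choice and are no result. In Wnt9bKO 2 *Lgr6* was the lowest and *Lgr4* the highest of its label, so their calls in this fit give no separate support. Without both, the log2 fold change turned for *Rspo2* in Wnt9bKO against wt (0.41), in DKO against Rspo2KO (-0.44) and in the interaction (-0.84), for *Rspo1* in DKO against Rspo2KO (-0.06), for *Lgr4* in DKO against Wnt9bKO (0.03), for *Rspo3* (0.09) and *Lgr5* (0.22) in Wnt9bKO against Rspo2KO, and for *Rspo3* (-0.12), *Lgr6* (-0.35) and *Rnf43* (-0.17) in the interaction. Without the filter on low counts *Rspo2* passed in Rspo2KO against wt and in DKO against Wnt9bKO. In Wnt9bKO against Rspo2KO *Rspo2* and *Lgr6* then passed. With only the groups compared in the model *Rspo2* passed in Rspo2KO against wt. With at least 10 counts in every library 0 genes passed in Wnt9bKO against Rspo2KO, where *Lgr6* was then not tested. With the offset for GC content and length 2 passed there, with or without the block. The study's threshold gave 2 genes in Rspo2KO against wt, 0 in Wnt9bKO against wt, 1 in DKO against Rspo2KO, 2 in DKO against Wnt9bKO, 2 in Wnt9bKO against Rspo2KO and 1 in the interaction, beside the shares of all genes given with the comparisons. The offset turned *Rspo1* in Wnt9bKO (0.04) and DKO (0.08) against wt and in Wnt9bKO against Rspo2KO (0.09).

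The labels share replicate numbers and do not say what a shared number stands for. Of 15 pairs of libraries with the same number, 3 had deviations from the genotype means with r over 0.1 (range -0.105 to 0.236). Pairs with different numbers ranged from -0.186 to 0.105, and 8 of 11 libraries were most like one of their own number. Whether the numbers mark a batch was not tested. With the replicate block 0, 1, 2, 2, 0, 1 and 0 genes passed in the 7 comparisons, the counts of the fit without it. Offset and replicate block together gave *Rspo1* 0.04 in DKO against wt and 0.10 in Wnt9bKO against Rspo2KO, *Lgr5* -0.07 in Wnt9bKO against wt and *Znrf3* 0.03 in the interaction.

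When each library was left out in turn, with a lone wt library assumed to vary like the rest, the number of genes that passed ranged from 0 to 1 in Wnt9bKO against wt, 0 to 2 in DKO against wt, 0 to 3 in DKO against Rspo2KO and 0 to 3 in Wnt9bKO against Rspo2KO. Leaving out wt 1 alone ended the calls of *Znrf3* and *Rspo3* against wt. Log2 fold changes whose direction turned ranged in Wnt9bKO against wt from -0.56 to 0.43 for *Rspo2*, -0.09 to 0.58 for *Lgr5* and -0.16 to 1.19 for *Lgr6*. In Rspo2KO against wt *Rnf43* ranged from -0.20 to 0.12, and in DKO against wt *Rspo1* from -0.19 to 0.02 and *Lgr6* from -1.24 to 0.11. In DKO against Rspo2KO *Rspo1* ranged from -0.06 to 0.14 and *Rspo2* from -0.44 to 0.88, and in DKO against Wnt9bKO *Rspo1* from -0.05 to 0.18. In Wnt9bKO against Rspo2KO *Rspo1* ranged from -0.13 to 0.09, *Rspo3* from -0.28 to 0.10 and *Lgr5* from -0.43 to 0.23. In the interaction *Rspo2* ranged from -0.36 to 1.10, *Rspo3* from -0.08 to 0.29, *Lgr6* from -0.73 to 0.60 and *Rnf43* from -0.11 to 0.27. Of the single-gene fold changes under all alternatives, 1119 kept direction and side of the threshold, 25 newly passed, 28 no longer passed and 42 turned, and all 135 recomputed levels moved by less than the spread between replicates. Depth limits *Rspo4* and *Lgr6* most, with at most 8 and 23 counts in any library.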

Other observations

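The genes most like the other members of the module were picked from the highest of at least 14850 correlations over 11 libraries and are given as values. For *Rnf43* they were *St14* (r = 0.943), *Slc2a6* (0.930) and *Trp63* (0.924), of which *St14* encodes an epithelial membrane protease and *Trp63* a transcription factor of surface epithelium that is also in the epithelial marker list. In CPM, *Trp63* stood at 30.4 and 32.5 for wt, between 24.0 and 31.6 for Rspo2KO, between 35.0 and 42.1 for Wnt9bKO and between 32.6 and 51.2 for DKO libraries. The 10 surface epithelium markers as a list went both ways. Against wt, 2 of them passed in Wnt9bKO and 2 in DKO, each time 1 higher and 1 lower (medians 0.13 and 0.02). Their sums overlapped: wt libraries had 253 and 268 CPM, Wnt9bKO libraries 238 to 269.8 and DKO libraries 234 to 279.6. For *Lgr5* the most similar genes were *9130410C08Rik* (0.912), *Kremen1* (0.877), a gene for a receptor of the WNT inhibitor DKK1, and *Fendrr* (0.876). For *Znrf3* they were *Msl2* (0.958), *Card10* (0.957) and *Ltn1* (0.941), with *Card10* levels of 6.07 and 5.49 CPM (wt) against 1.18 to 3.15 CPM (DKO).

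For *Lgr4* the nearest were *Gm17056* (0.950), *2700016F22Rik* (0.931) and *Pde7a* (0.917), and for *Rspo3* they were *Palmd* (0.938), *Trp53inp1* (0.935) and *Ppfia2* (0.928). *Rspo1* had lower values, with *Bbs7* (0.811), *Sec16b* (0.802) and *Trp53rkb* (0.794), as had *Lgr6*, with *Pde6g* (0.867), *Fam173b* (0.860) and *Smyd3* (0.857).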
